A study of Mus musculus with 8 samples.

Results

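The genes described here are those whose messenger RNA carried an N6-methyladenosine (m6A) peak after each of 3 compounds but not in untreated cells, and those marked in untreated cells but after none of the compounds. The genes were chosen by the presence or absence of a called peak in the 4 lists alone. A gene was counted where it lay on the peak's strand and held or overlapped the peak. By that rule 153 genes had a peak after TBP, after TCP and after TIP and none in control (called common genes below), which was 3.54% of the 4323 genes that any list marked. Another 163 genes, 3.77% of the 4323, had a peak in control and in no compound list (called control-only genes). Because these lists chose the genes, the absence or presence of a peak is a description and was not tested.

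The cells of all 4 conditions were RAW264.7, an established mouse macrophage line. They were untreated (Control) or were exposed for 24 h to 100 µM of a compound, TBP, TCP or TIP, and the labels do not spell out these 3 abbreviations. RNA fragments were pulled down with an anti-m6A antibody and sequenced (MeRIP-seq), and each condition had 1 immunoprecipitated library, whose peak list was analysed, and 1 RNA input library, which was not analysed here. With no second library of any condition, nothing here carries a p-value, and all 3 compounds were set against the same control library.

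Every 95% interval below is an exact Clopper-Pearson interval that covers counting error only, unless said otherwise. Sequencing depth is unknown because the lists hold no reads, and a missing peak means only that none was called. More methylation and more of the transcript cannot be told apart in these lists. Of 10 macrophage markers, 6 carried a peak in control, 6 after TBP, 4 after TCP and 3 after TIP. None of 24 markers of other cell types carried a peak in any list, and no marker of either kind was among the common or control-only genes.

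m6A is the most common internal modification of messenger RNA. A methyltransferase complex built around METTL3 and METTL14 writes it at adenosines in a short consensus, and it is known to gather in long internal exons, near stop codons and in 3′ UTRs. Reader proteins of the YTH family bind the mark and affect the splicing, translation and decay of the transcript, and the demethylases FTO and ALKBH5 can remove it. In macrophages the mark is known to tune inflammatory transcripts.

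Reference sequence could be printed for few of these peaks, namely those that fall in RefSeq's windows around gene starts (GRCm38.p6). Each sequence is written 5′ to 3′ on the transcript's strand. Capitals mark the words AAC and GAC together with the base after them, wherever that base is not G. This is the centre of the m6A consensus, searched on the transcript's strand with overlaps allowed. Among common genes the windows reached Pcif1 and Dclre1b, both in the 3′ UTR. The Pcif1 stretch, at chr2:164891146-164891175 on the plus strand, is shown because it spans the border where the TIP peak (164891136 to 164891160) ended and the TBP peak (164891161 to 164891185) began, inside the wider TCP peak (164891086 to 164891210). The Dclre1b stretch, at chr3:103803155-103803178 on the minus strand, held 24 of the 25 bases of a weaker peak called by TBP (rank 4234) and TCP (rank 4645). The recurring site of this gene, at 103803380 to 103803404 with rank 3788 in TBP, 797 in TCP and 1805 in TIP, lay outside the windows.
Pcif1: gggtgctgtcacaGACTgctagGACTcagc
Dclre1b: ctgcgtaggctgtggttctccccc

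The Pcif1 stretch held GACT at 2 places, of which the first lay across the border and the other inside the TBP peak. The Dclre1b stretch held none of the words.

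For the control-only genes the windows reached 8 peaks, all annotated to 5′ UTRs, and 5 of the 8 held a word. By comparison, 38.1% of the first 25 transcribed bases in RefSeq's windows (12512 of 32851) held one. The 8 peaks lay at other positions, from -211 bp (Fads2) to 515 bp (Paics, 22 bases) of their gene's RefSeq start. The comparison is therefore not like with like. A match is a description of the letters and not evidence of a methylated base. The 5 shown are 25 bases of the control peak of Sf3b6 (chr12:4817594-4817618, plus strand), Ndufa8 (chr2:36049296-36049320, minus strand), Ciao1 (chr2:127247720-127247744, minus strand), Ly86 (chr13:37345320-37345344, plus strand, the centre of a wider peak) and Nucb2 (chr7:116504394-116504418, plus strand).
Sf3b6: tagtgtGACTtggagcatcttttct
Ndufa8: ttggccagccaaagggGACTtgaag
Ciao1: tcaattcctagggcGACAtattttg
Ly86: tcccagaGACTagtattcgagaagt
Nucb2: gcaaggcggagggccgtgggcaggg

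The first 4 of these held a word and the Nucb2 stretch, rich in G, held none. SF3B6 is a subunit of the spliceosome's SF3b complex, NDUFA8 a subunit of respiratory complex I, CIAO1 a component of cytosolic iron-sulfur cluster assembly and LY86 (MD-1) the partner of the receptor RP105.

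**Figure D1:**
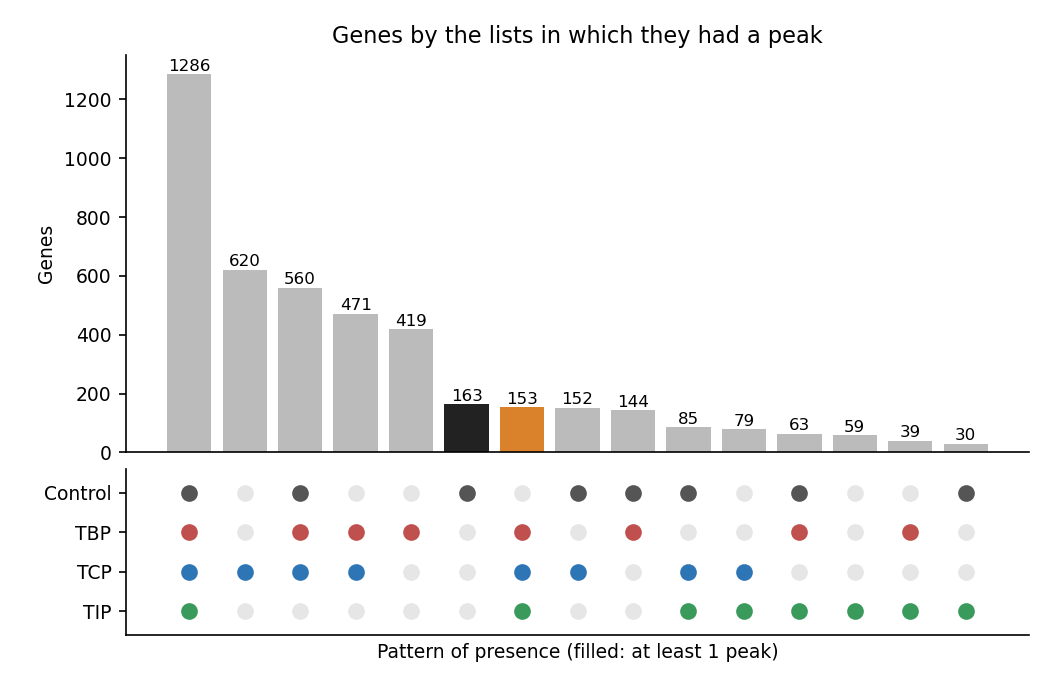
Number of genes (vertical axis) for each combination of lists in which a gene had a peak, with filled dots below each bar naming the lists. The 153 common genes (orange) and the 163 control-only genes (black) stand beside 1286 genes with a peak in all 4 lists.

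The common genes made up a different share of each compound's gains, and the lists differ in length. TBP had a peak in 1082 genes without a control peak (25.0% of all genes with a peak), TCP in 1323 (30.6%) and TIP in 330 (7.63%). The common genes were 14.1% (12.1% to 16.4%) of the TBP gains, 11.6% (9.89% to 13.4%) of the TCP gains and 46.4% (40.9% to 51.9%) of the TIP gains. TIP's list was the shortest, with 3034 peaks against 6285 for TBP, 6981 for TCP and 4432 for control.

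The losses were arranged the other way. TBP lacked a peak in 430 genes that had a control peak (9.95%), TCP in 400 (9.25%) and TIP in 1019 (23.6%). The control-only genes were 37.9% (33.3% to 42.7%) of the TBP losses, 40.8% (35.9% to 45.7%) of the TCP losses and 16.0% (13.8% to 18.4%) of the TIP losses. Just outside the rule, 471 genes without a control peak missed only TIP, 79 missed only TBP and 39 missed only TCP. Likewise 144 genes had a peak in control and TBP alone, 152 in control and TCP alone, and 30 in control and TIP alone.

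The authors gave each peak 1 score whose scale is not stated, so peaks were ranked only within their own list, with rank 1 the highest and tied peaks sharing a rank. By the mean percentile over the 3 compound lists, Foxo3 came first among the common genes. Foxo3 encodes a forkhead transcription factor active in stress resistance, metabolism and cell survival. It had no control peak and was covered by all 3 compounds at 2 places on the minus strand of chromosome 10. The stronger place, in exon 3 of 4 at chr10:42196613-42196662, ranked 60 in TBP, 91 in TCP and 399 in TIP. Its weaker place, in the 3′ UTR at chr10:42186141-42186190, had rank 1002 in TBP, 921 in TCP and 1190 in TIP. In all, the common genes held 61 such sites in 60 genes, and Foxo3 was the 1 gene with a pair of them.

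Several other high-ranking common genes had 1 shared site in the 3′ UTR. WDR3 acts in assembly of the small ribosomal subunit, and its peaks met at chr3:100138655-100138679, with rank 1314 in TBP, 590 in TCP and 17 in TIP. Phb2 encodes prohibitin 2, a scaffold of the inner mitochondrial membrane and a mitophagy receptor. Its peaks met at chr6:124716742-124716766 with rank 269 in TBP, 479 in TCP and 834 in TIP. Phb, the gene of the partner prohibitin, was also a common gene, with 3′ UTR peaks from position 95680444 of chromosome 11 in all 3 lists at ranks 1452, 2043 and 1104 for TBP, TCP and TIP. Both prohibitin genes therefore had a common gene's pattern with a recurring 3′ UTR site.

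Dazap1 encodes an RNA-binding protein of splicing and translation, and its 3′ UTR peaks had rank 658 in TBP, 921 in TCP and 520 in TIP. Cipc, a circadian repressor that binds CLOCK, had rank 3126 in TBP, 163 in TCP and 17 in TIP. Atp23, an inner-membrane peptidase that helps assemble ATP synthase, had rank 555 in TBP, 1020 in TCP and 890 in TIP. Rank 17 in TIP is a tie of 301 peaks, and 7 common genes had their strongest TIP peak there. The tie holds 9.92% of a list whose scores take 44 distinct values, so a TIP rank of 17 marks a broad top class.

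Fut10, Parg and Dido1 had recurring sites in exons outside UTRs. FUT10 is a fucosyltransferase-family protein, and its peaks met at chr8:31236202-31236251 in exon 4 of 5, with rank 349 in TBP, 258 in TCP and 654 in TIP. PARG removes poly(ADP-ribose) chains after DNA damage, and its peaks began at the same base, 32209183 of chromosome 14 in exon 3 of 9, in all 3 lists. Their ranks were 555 in TBP, 1083 in TCP and 890 in TIP. Dido1, which encodes a chromatin reader linked to apoptosis and stem cell maintenance, was shared in exon 4 of 16 with rank 1054 in TBP, 1225 in TCP and 733 in TIP. Abi2 (a WAVE complex subunit), Ints7 (an Integrator subunit) and Tor1b (a torsin ATPase) completed the 12 best shared sites, each in the 3′ UTR.

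**Figure D2:**
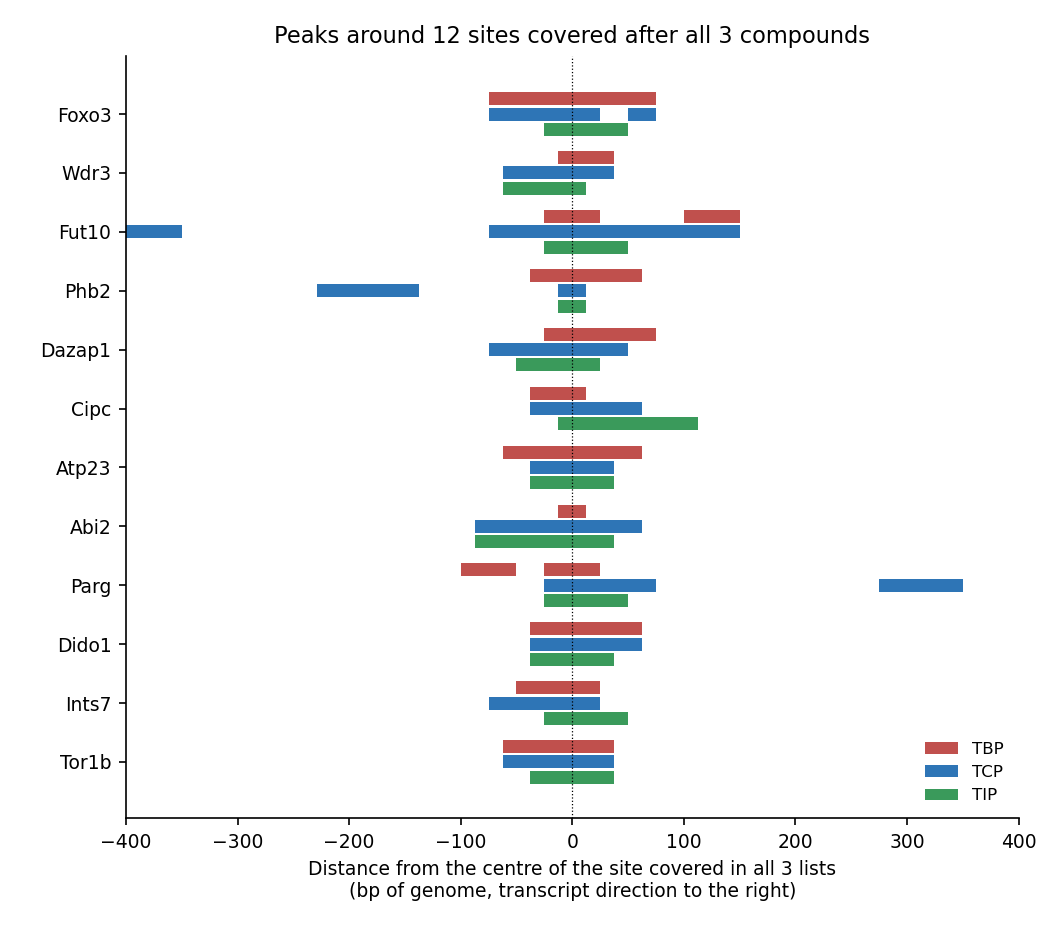
Peaks of 12 common genes (vertical axis) after TBP, TCP and TIP, drawn as bars to scale against the distance in bp of genome from the centre of the best site covered in all 3 lists (horizontal axis, transcript direction to the right). All 3 bars cross 0 in every gene, and their ends differ between compounds.

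Other high-ranking common genes had peaks that did not meet in all 3 lists. Smg5, a factor of nonsense-mediated decay, had its peaks in exon 12 of 22 on chromosome 3, ranked 2789 for TBP, 307 for TCP and 17 for TIP. The TCP peak overlapped both others, and the TIP peak began at 88351160, the base after the TBP peak's end at 88351159. Birc5 encodes survivin, an inhibitor of apoptosis and a mitotic regulator. Its TCP peak (rank 159) and TIP peak (rank 17) both began at 117855467 of chromosome 11 in the 3′ UTR, while the TBP peak (rank 3126) ended at 117855366. Khdc4, an RNA-binding splicing factor, had 2 clusters of 3′ UTR peaks, and in each cluster 1 pair of compounds abutted rather than overlapped.

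Only 8 of the 153 common genes had at least 2 peaks in each compound list, which were Foxo3, Khdc4, Dido1, Sec62, Gins3, Trpm7, Arid4a and Mdn1. SEC62 is a membrane protein of the endoplasmic reticulum translocon. It had 4 peaks for TBP, 3 for TCP and 2 for TIP, in exon 8 of 8 for all 3 compounds and also in the adjoining 3′ UTR for TBP and TCP. ARID4A, a chromatin-binding partner of the retinoblastoma protein, had 2 peaks per list, and all lay in exon 20 of 24. Trpm7, a channel kinase for magnesium and calcium, had peaks of all 3 compounds in exon 21 of 39, where TCP overlapped both TBP and TIP. In Mdn1, the giant ATPase of large-subunit ribosome assembly, the 3 lists came close in exon 79 of 102 and differed elsewhere.

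By function, 46 of the 153 common genes fell in 22 of 32 lists of gene names. How many of all genes with a peak fell in any list was not counted, so this number is no result about the common genes. The largest group was the mitochondrial ribosome, with 5 of its 39 genes with a peak among the common genes (12.8%, beside 3.54% of all genes with a peak) and 3 among the control-only genes. These 5 were Mrps23, Mrpl41, Mrps30, Mrpl17 and Mrpl52, which encode protein subunits of the ribosome that translates mitochondrial messenger RNA. Mrps23 had a recurring 3′ UTR site with rank 1695 in TBP, 1354 in TCP and 1455 in TIP, and Mrpl41 one in its exon 2 of 2 with rank 1797, 2043 and 2269. In Mrps30 the peaks lay in exon 5 of 5, where TBP overlapped both others and the TCP peak ended 1 base before the TIP peak. Mrpl17 had rank 4741 in TBP, 5932 in TCP and 1017 in TIP, and Mrpl52 rank 5377, 5229 and 2269. These last 2 genes had no recurring site, and their order among the 5 differed between lists.

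Translation factors gave 4 common genes of 43 with a peak (9.30%) and 3 control-only genes. The 4 were Eif3l (a subunit of initiation factor 3), Eif5 (the GTPase activator of the scanning ribosome), Eif4enif1 (the shuttling partner of the cap-binding protein) and Eif4h. None of the 4 had a recurring site. In Eif4enif1 the 3′ UTR peaks of TBP (rank 4741) and TIP (rank 890) abutted inside the TCP peak (rank 1294). Eif3l had 3′ UTR peaks of TCP (rank 1158) and TIP (rank 834) that overlapped, and a TBP peak that ended at the base before that TCP peak. Its strongest TBP peak (rank 2789) lay in exon 11 of 13, and TBP and TCP also shared a site in this gene.

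Cholesterol handling gave 2 common genes of 13 with a peak (15.4%) and no control-only gene. They were Abca1, the transporter that loads cellular cholesterol onto apolipoprotein A-I, and Npc2, which moves cholesterol out of lysosomes. Abca1 peaks clustered in the 3′ UTR, with its best rank 1797 in TBP, 1354 in TCP and 2269 in TIP, and TBP and TIP abutted there. Small RNA and decay factors gave 2 of 31 (6.45%), Smg5 and Dicer1, and no control-only gene. Dicer1, the endonuclease that matures microRNAs, had 6 TBP peaks, 4 TCP peaks and 1 TIP peak. All 3 compounds marked exon 21 of 27, with best rank 1944 in TBP, 2827 in TCP and 2449 in TIP, and TBP shared 1 site there with TCP and another with TIP.

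Single common genes came from several pathways. Of 8 RNA adenosine methyltransferase genes with a peak, Pcif1, the writer of cap-adjacent m6Am, was the 1 common gene, with rank 4234 in TBP, 1158 in TCP and 2704 in TIP. Of 15 Toll-like receptor pathway genes with a peak, the 1 was Unc93b1, the chaperone of endosomal receptors, whose exon 3 site recurred with rank 1571 in TBP, 2043 in TCP and 1104 in TIP. Txnrd1, thioredoxin reductase and a target of NRF2, was 1 of 15 antioxidant genes with a peak. Its TBP peak (rank 2299) and TCP peak (rank 3393) shared a 3′ UTR site, while the TIP peak (rank 2704) lay in exon 8 of 15. Nr3c1, the glucocorticoid receptor, was 1 of 10 genes of its list, and its site in exon 2 of 9 recurred with rank 1470 in TBP, 3095 in TCP and 2269 in TIP. Atf4 was 1 of 23 stress-response genes with a peak and Foxo3 1 of 9 forkhead genes.

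Further lists are given beside the 3.54% of all genes, with shares on either side of it. Solute carriers gave 4 common genes of 79 with a peak (5.06%), ubiquitin ligases and deubiquitinases 4 of 139 (2.88%), chromatin modifiers 3 of 89 (3.37%), splicing factors 3 of 74 (4.05%), trafficking genes 3 of 99 (3.03%), cell cycle genes 3 of 82 (3.66%), actin genes 2 of 30 (6.67%) and zinc finger genes 2 of 123 (1.63%). Among their common genes were Wasf2 (an actin-regulating WAVE subunit with a recurring 3′ UTR site), Setd1a (a histone H3K4 methyltransferase), Brd8 (a bromodomain subunit of the TIP60 complex) and Ube4a (a ubiquitin chain elongation factor). The lists of interferon signalling, 3′ end processing, MAP kinase cascades, macrophage identity and named long non-coding RNAs held neither a common nor a control-only gene. They had 15, 14, 23, 14 and 7 genes with a peak, in that order. At the shares over all genes, lists of that size would hold few or no members, so their absence is no result about these pathways.

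Most common genes had few peaks. There were 222 TBP peaks, 256 TCP peaks and 174 TIP peaks in the 153 genes, or 1.45, 1.67 and 1.14 per gene. Genes with a peak in all 4 lists had 2.85, 3.05 and 1.90 per gene. In 68 common genes (44.4%, 36.4% to 52.7%) each compound had exactly 1 peak, against 196 of 1286 (15.2%, 13.3% to 17.3%) of the genes in all 4 lists. In biotype, 152 of the common genes were protein coding and 1 was a long non-coding RNA.

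A site was counted as recurring where a base was covered by a peak of all 3 compounds on the same strand. That was so in 60 of the 153 common genes (39.2%, 31.4% to 47.4%), against 61.4% of all 1439 genes that every compound list marked. In the genes that also had a control peak it was so in 823 of 1286 (64.0%, 61.3% to 66.6%), and the intervals did not overlap. The difference was present at equal peak number. With exactly 1 peak per compound list, 28 of 68 common genes (41.2%, 29.4% to 53.8%) had a recurring site, against 125 of 196 genes in all 4 lists (63.8%, 56.6% to 70.5%) and 58.0% of both together.

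Recurrence was also compared by peak score, and a part of score in the difference was not tested. Common genes whose 1 peak stood at or above the list median in each compound list shared a site in 11 of 13 cases (84.6%, 54.6% to 98.1%), against 76 of 89 genes in all 4 lists (85.4%, 76.3% to 92.0%). Where at least 1 of the 3 peaks stood below its median, 17 of 55 common genes shared a site (30.9%, 19.1% to 44.8%), against 49 of 107 (45.8%, 36.1% to 55.7%). With any number of peaks, classed by the strongest, the common genes stood lower in both classes. The upper class had 31 of 45 (68.9%, 53.4% to 81.8%) against 632 of 806 (78.4%, 75.4% to 81.2%). The lower class had 29 of 108 (26.9%, 18.8% to 36.2%) against 191 of 480 (39.8%, 35.4% to 44.3%). When only peaks at or above each list's median were kept and the common genes drawn again, the share was 65.0% of 123 genes. With lists cut to the length of the shortest, it was 64.0% of 114 genes. No share of the genes in all 4 lists is given under these restrictions, so whether the difference remained was not tested. Within either score class the intervals overlapped, and only 13 of the 68 common genes were in the upper class. This split by score was chosen after the values were seen.

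**Figure D3:**
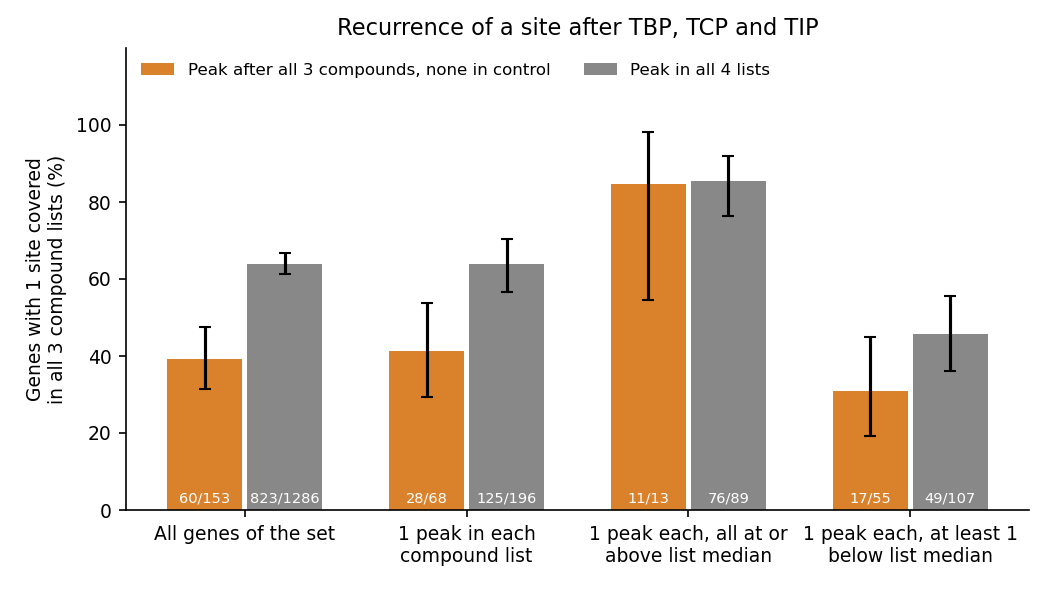
Share of genes (vertical axis, percent) with a site covered in all 3 compound lists, for common genes (orange) and genes with a peak in all 4 lists (grey), over all genes, at 1 peak per compound list and by score class, with counts in the bars and exact 95% intervals for counting error. Over all genes and at 1 peak per list the common genes stood at 39.2% and 41.2%, below the 64.0% and 63.8% of the genes in all 4 lists.

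Of the 93 common genes without a recurring site, 50 (53.8%, 43.1% to 64.2%) had peaks of the 3 lists pairwise within 100 bp. With the recurring sites included it was 110 of the 153 (71.9%, 64.1% to 78.9%), against 1111 of 1286 genes in all 4 lists (86.4%, 84.4% to 88.2%). Pcif1 is among the 50, as its printed border shows. Atf4, the main transcription factor of the integrated stress response, is another. Its TBP and TCP peaks both spanned 80256784 to 80256808 of chromosome 15 in exon 3 of 3, and its TIP peak ended at 80256758.

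Peaks of different compounds lay over 100 bp apart for every pair in 5 common genes, Apc, Cct8, Eif4h, Ikzf1 and Arhgef6. The peaks of Cct8, a subunit of the cytosolic chaperonin, were annotated to the 3′ UTR for TBP and TCP and to the 5′ UTR for TIP. Eif4h, a helper of the translation initiation helicase, had 3′ UTR peaks for TBP and TCP and a peak in exon 2 of 7 for TIP. Their TBP and TCP ranks were low, 5377 and 5229 for Cct8 and 5377 and 4645 for Eif4h. These 2 genes met the rule for common genes without any shared location.

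Over the 3 pairs of compounds, all at the same dose and time, TBP and TCP shared a site in 105 of the 153 genes (68.6%, 60.6% to 75.9%). TCP and TIP shared one in 92 (60.1%, 51.9% to 67.9%), and TBP and TIP in 81 (52.9%, 44.7% to 61.1%). The share for TBP with TCP exceeded that for TBP with TIP by 15.7 percentage points (8.17 to 23.2, normal approximation for paired shares). It differed from TCP with TIP by 8.50 points (-0.210 to 17.2). TBP with TIP differed from TCP with TIP by -7.19 points (-16.3 to 1.92), so the data do not separate those pairs.

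Peak number per list also differed between compounds. Among the 68 genes with 1 peak per list, TBP and TCP shared a site in 42 (61.8%), TCP and TIP in 42 (61.8%) and TBP and TIP in 35 (51.5%). The difference between TBP with TCP and TBP with TIP was then 10.3 points (0.119 to 20.5), close to 0 at its lower bound. TBP with TCP against TCP with TIP was 0 points (-13.0 to 13.0), and TBP with TIP against TCP with TIP was -10.3 points (-23.4 to 2.78). In the genes with a peak in all 4 lists, with any number of peaks, the 3 shares were 88.6% for TBP with TCP, 78.9% for TBP with TIP and 79.1% for TCP with TIP. At 1 peak per compound list they were closer, at 79.6% (73.3% to 85.0%), 75.0% (68.3% to 80.9%) and 76.0% (69.4% to 81.8%) in the same order.

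Common genes are counted by gene, which leaves out sites gained in genes that had a control peak elsewhere. Across all genes, 1192 sites were covered by all 3 compounds. Of these, 889 (74.6%, 72.0% to 77.0%) also had a control peak there and 61 (5.12%, 3.94% to 6.53%) lay in the common genes. The other 242 (20.3%, 18.1% to 22.7%) lay in 213 genes with a control peak at another place. No control peak assigned to another gene or to none overlapped a compound peak of any of the 153 genes on either strand.

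Peaks of the common genes lay mostly in 3′ UTRs. The share was 63.1% for TBP (140 of 222 peaks, 56.3% to 69.4%), 53.9% for TCP (138 of 256, 47.6% to 60.1%) and 57.5% for TIP (100 of 174, 49.8% to 64.9%). In genes with a peak in all 4 lists it was 45.8%, 44.3% and 47.1%, and over all peaks 50.7%, 48.5% and 48.8%, in the same order. Genes with fewer peaks had more of them in the 3′ UTR, and at 1 peak in the list the gap was not seen. There the common genes stood at 64.7% against 65.7% in TBP, 66.3% against 67.0% in TCP and 62.4% against 59.6% in TIP.

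Among peaks in exons outside UTRs, internal exons held 64.5% in TBP, 67.3% in TCP and 67.1% in TIP in the common genes, close to the 60.6%, 62.6% and 61.5% over all peaks of those lists. Peaks in 5′ UTRs were 2.25%, 2.73% and 1.72% in the common genes and 3.87%, 3.85% and 3.49% over all peaks. Each value over all peaks lay inside the common genes' interval. The strongest peak had the same class in all 3 lists in 112 of the 153 genes (73.2%, 65.5% to 80.0%), with 74 in the 3′ UTR and the other 38 in an exon.

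Among the 60 genes with a recurring site, the best such site lay in the 3′ UTR in 37, in an exon in 20 and in the 5′ UTR in 1. For the other 2, Dtx4 and Hhex, the lists' annotation differed between compounds at the boundary of the last exon and the 3′ UTR. The 1 gene with a recurring 5′ UTR site was Dnajc10, which encodes a disulfide reductase of the endoplasmic reticulum. Its site, chr2:80317359-80317433, had rank 1571 in TBP, 1446 in TCP and 1455 in TIP.

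**Figure D4:**
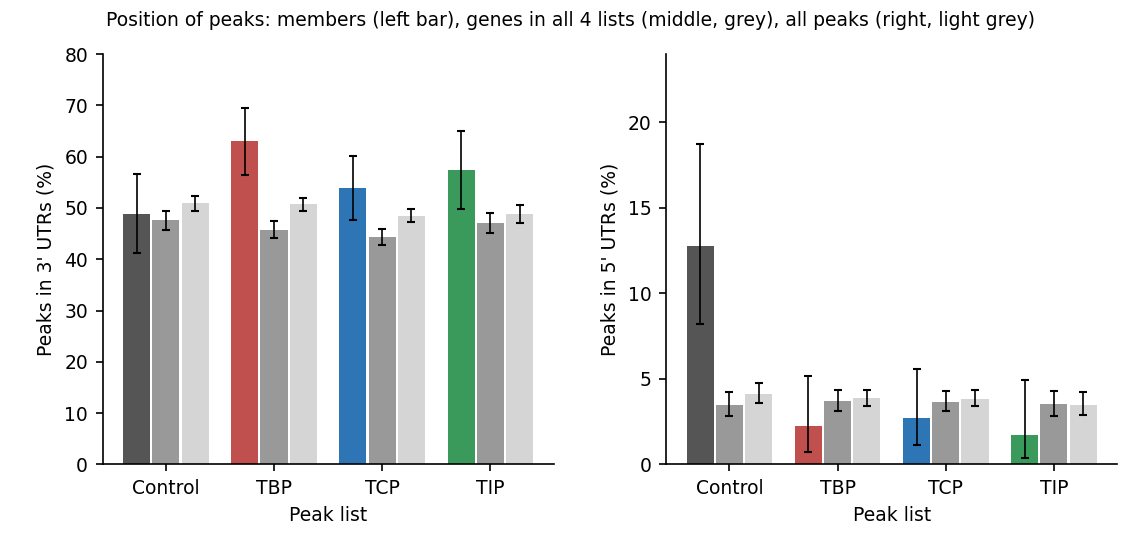
Share of peaks (vertical axes, percent) annotated to 3′ UTRs (left) and 5′ UTRs (right) in each list, for common genes in the compound lists or control-only genes in Control (left bar), genes with a peak in all 4 lists (middle) and all peaks (right), with exact 95% intervals for counting error. The control-only genes had 12.8% of their peaks in 5′ UTRs, against 4.13% of all control peaks.

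Peaks of the common genes stood lower in the lists than those of genes marked in all 4. The median percentile of a gene's strongest peak, with 0 at the top of the list, was 40.2 in TBP against 15.9, 31.8 in TCP against 13.8, and 55.6 in TIP against 31.2. Over all genes of each list it was 36.6 in TBP, 37.3 in TCP and 42.2 in TIP. Against all genes, the common genes thus stood nearer the top in TCP and lower in TBP and TIP. In the best 10% of the list stood 8 common genes of 153 for TBP, 18 for TCP and 7 for TIP. Over all genes it was 502 of 3135 for TBP, 559 of 3406 for TCP and 264 of 1794 for TIP. At the lowest score of the list, just inside the limit of what was called, stood the strongest peak of 11 common genes for TBP, 8 for TCP and 20 for TIP. Over all genes this held for 295 of 3135 in TBP, 364 of 3406 in TCP and 136 of 1794 in TIP. Presence in a list depends on the score, so these ranks describe the genes and support nothing further.

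**Figure D5:**
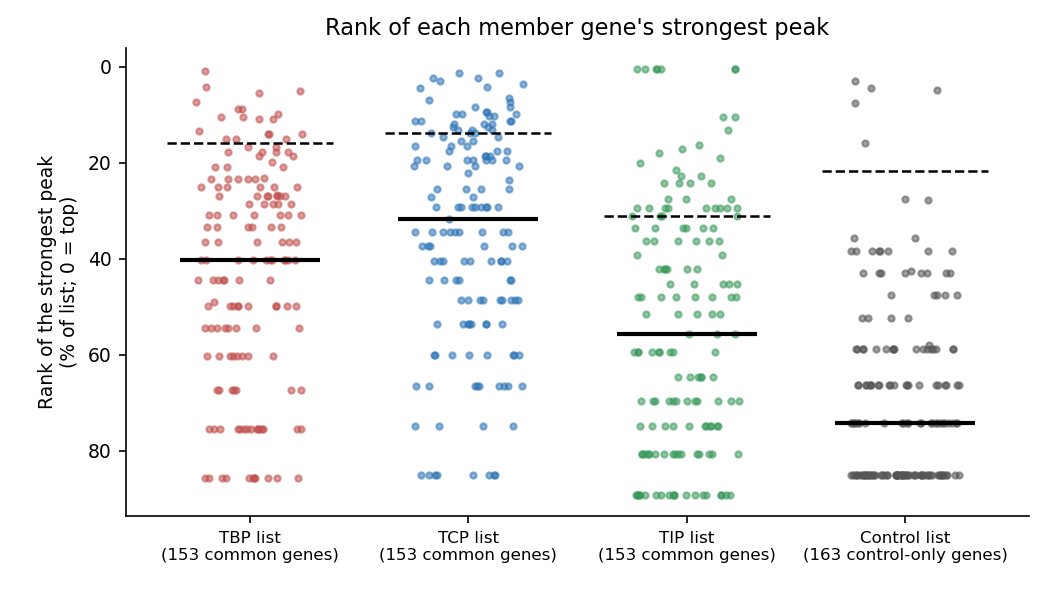
Percentile rank of each gene's strongest peak within its list (vertical axis, 0 at the top), 1 point per gene, for the common genes in the TBP, TCP and TIP lists and the control-only genes in the Control list. Solid lines are medians (40.2, 31.8, 55.6 and 74.3) and dashed lines the medians of genes with a peak in all 4 lists (15.9, 13.8, 31.2 and 21.7).

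The control-only genes were weaker still. Their strongest control peak had a median percentile of 74.3, against 21.7 for genes in all 4 lists, and 63 of the 163 had it at the lowest score of the control list. Only 31 stood at or above the list median and 4 in the best 10%. Over all 2483 genes of the control list the median percentile was 38.3. Of these, 281 stood at the lowest score, 1505 at or above the list median and 346 in the best 10%. There were 172 control peaks in the 163 control-only genes, and 155 genes had a single one. In biotype 157 were protein coding and 3 were long non-coding RNAs. No compound peak assigned to another gene or to none overlapped a control peak of these genes.

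The control-only gene with the best rank was Pabpc1, the main cytoplasmic poly(A)-binding protein, at rank 129 of 4432. That peak was called over 2451 bp of genome from exon 1 of 15, at chr15:36605892-36608342 on the minus strand, and a second peak in exon 10 had rank 3291. Next came Nfkbia, which encodes the NF-kB inhibitor IκBα, with a 25 bp peak in the 3′ UTR at chr12:55489910-55489934 and rank 196. Actb, cytoplasmic β-actin, had rank 216 in exon 6 of 6 and rank 1698 in exon 3. H1f3, a linker histone gene of a single exon, had rank 336. Pabpc1 and Actb are abundant transcripts in most cells, and these 4 genes were the control-only genes in the best 10% of the control list.

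From the fifth gene on, the ranks were lower. Mdh2, mitochondrial malate dehydrogenase, had rank 708 in the 3′ UTR. Atpif1, the inhibitor of ATP synthase reversal, had rank 1218 and was the 1 control-only gene with 3 peaks. Snx19 (an endosomal sorting nexin) had rank 1233, Paics (an enzyme of purine synthesis) and Pdcd6ip (the ESCRT adaptor ALIX) rank 1581. Asns (asparagine synthetase), Capg (an actin filament capping protein) and Eef1aknmt (a methyltransferase for elongation factor 1A) shared rank 1698.

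By function, 53 of the 163 control-only genes fell in 19 of the 32 lists, again without a count over all genes with a peak. Cytosolic ribosomal proteins gave 6 of 32 genes with a peak (18.8%, beside 3.77% of all genes with a peak) and no common gene. They included Rps29 and Rps9 at rank 1905, Rpl23 at 3291, and Rpl9 and Rps20 at 3772, which is the lowest score. Their positions were mixed, with the 5′ UTR for Rps29, the 3′ UTR for Rpl9, and an exon for Rps9, Rpl23 and Rps20. Actin and actin regulators gave 6 of 30 (20.0%), against 2 common genes. Beside Actb and Capg these were Diaph1 (a formin, rank 1905), Vim (the intermediate filament vimentin, rank 2610), Arpc3 (an Arp2/3 subunit, rank 3291) and Rhoa (a GTPase that drives stress fibres, rank 3772).

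In the 2 lists of cytosolic ribosomal and actin genes, 2 of 32 and 1 of 30 genes with a peak had one in all 4 lists, beside 1286 of all 4323 genes. Few of these genes were thus marked in every list. Cytokines and chemokines gave 2 control-only genes of 6 with a peak (33.3%), Spp1 (osteopontin, rank 2323) and Ccl9 (a macrophage chemokine, rank 2572), both in the 3′ UTR. Histones gave 2 of 7 (28.6%), H1f3 and H2bc18. Of the stress-response list, Asns and Chac1, both known targets of ATF4, were control-only while Atf4 itself was a common gene. Asns had rank 1698 and Chac1 rank 2938 in control.

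Among m6A readers and demethylases, Fto was the 1 control-only gene of 10 with a peak, at rank 3772 in exon 3 of 9. The peak thus stood at the lowest score of the list. Named outside the rule for their known roles in macrophages or clocks, Acod1, which makes itaconate, and Clock, the partner of the common gene Cipc, also had 1 control peak each in the 3′ UTR at rank 3772. RNA helicases gave 3 control-only genes of 34 (8.82%; Dhx36, Ddx47 and Ddx39a) and 1 common gene (Ddx1). Respiratory chain genes gave 3 of 31 (9.68%; Atp5mpl, Ndufa8 and Ndufb7) and 2 common genes (Ndufb1 and Atp5a1). Shares of the other lists lay on both sides of the 3.77% of all genes. Mitochondrial ribosomal proteins gave 3 of 39 (7.69%), translation factors 3 of 43 (6.98%) and cell cycle genes 5 of 82 (6.10%). Chromatin modifiers gave 1 of 89 (1.12%), ubiquitin genes 2 of 139 (1.44%) and zinc finger genes 2 of 123 (1.63%). DNA repair gave 1 of 42 (2.38%), solute carriers 2 of 79 (2.53%), splicing factors 3 of 74 (4.05%) and trafficking genes 5 of 99 (5.05%).

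Control peaks of the control-only genes lay more often in 5′ UTRs than other control peaks. The share was 22 of 172 (12.8%, 8.19% to 18.7%), against 157 of 4198 (3.74%, 3.19% to 4.36%) in genes that also had a compound peak. Of the 22 peaks, 5 overlapped a control peak on the other strand, so that 1 location could count under both genes, and without such peaks the share was 17 of 161 (10.6%, 6.27% to 16.4%) against 146 of 4060 (3.04% to 4.22%). With these peaks kept, it was 21 of 155 (13.5%, 8.59% to 20.0%) against 52 of 1367 (3.80%, 2.85% to 4.96%) in genes with 1 control peak, and 19 of 140 (13.6%, 8.37% to 20.4%) against 84 of 1957 (4.29%, 3.44% to 5.29%) among peaks below the list median. In genes with a compound peak and 1 control peak, the share among peaks below the median was 35 of 685 (5.11%, 3.58% to 7.03%). The contrast in 5′ UTRs was chosen after the values were seen. Beside the genes printed above, the 22 peaks included Rps29, Rbm8a (a core protein of the exon junction complex), Arpc3 and Pclaf (a partner of the replication clamp PCNA). When only peaks at or above each list's median were kept and the genes drawn again, the 5′ UTR share of the control-only genes was 4.46% of 112 peaks. In the full lists 19 of the 22 peaks stood below the median. Peak width also differed between the sets. Of the 172 peaks, 96 (55.8%, 48.1% to 63.4%) were 25 bp wide, against 36.6% of all control peaks. A part of width in the 5′ UTR share was not tested.

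The 3′ UTR share of the control-only genes was 84 of 172 (48.8%, 41.2% to 56.6%), against 50.8% (49.3% to 52.4%) in genes with a compound peak. In genes with 1 control peak it was lower, at 79 of 155 (51.0%, 42.8% to 59.1%) against 836 of 1367 (61.2%, 58.5% to 63.7%). Among peaks below the list median it was 68 of 140 (48.6%) against 947 of 1957 (48.4%). Gene length differed as well, with a median genomic span of 16208 bp in control-only genes, 28568 bp in common genes and 33213 bp in genes with a peak in all 4 lists. In 6 of the control-only genes the control peak overlapped that of another control-only gene on the opposite strand, as for Lipe, the hormone-sensitive lipase, and 4732471J01Rik. Among the common genes this was also seen, as Fkbp3 (minus strand) and Prpf39 (plus strand) had overlapping peaks in all 3 compound lists. The same location thus counted under both genes. Reads of such pairs are separated only as well as the lists' strand is.

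Of the common genes, 37 met the rule also with lists cut to the length of the shortest and with peaks at or above each list's median, and of the control-only genes 31 did. Under the latter restriction 108 control-only genes were found. The 37 included Foxo3, Khdc4, Wdr3, Fut10, Phb2, Phb, Dazap1, Dido1, Smg5, Parg, Mrps23, Eif5, Unc93b1, Carm1 (an arginine methyltransferase) and Jag1 (a Notch ligand). The 31 included Pabpc1, Nfkbia, Actb, H1f3, Mdh2, Atpif1, Asns, Capg, Rps29 and Rps9. Birc5, Atf4, Pcif1, Dicer1, Txnrd1, Abca1 and Nr3c1 were not among the 37, nor Fto, Rhoa, Spp1 and Ccl9 among the 31.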

How the data were processed

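The values are the 4 peak lists, 1 per immunoprecipitated library, deposited by the authors with positions, strand, annotation, nearest gene and 1 score per peak. The deposited score has no stated scale. The submitters' processing notes list, by name, ChIPseeker 1.26, deepTools 3.5.0, DESeq2 1.30.1, FastQC 0.11.9, HISAT2 2.1.0, HOMER 4.11, Picard 2.23.5, SAMtools 1.9, StringTie 2.1.4 and Trim Galore 0.6.5, and give GRCm38 (mm10) as the build. Which program called the peaks, at which threshold and with which input is not given in the sources used here. Most widths are multiples of 25 bp, so peaks can abut without overlap.

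A peak's gene was taken from the lists' exon annotation where that gene is on the peak's strand (45.0% of all 20732), then from the nearest gene where it holds the peak (37.6%), then from the only RefSeq gene over it (16.0%). This left out 31 peaks with several such genes and 255 with none. Small RNA genes were passed over. Lists were compared in Python 3.11.15 (pandas 2.3.3, SciPy 1.17.1). Peaks sharing 1 bp or more on a strand were counted as overlapping, and the steps were tested on simulated data.

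The genes and the 32 function lists were chosen with earlier results of these data known. Named genes were common genes with at least 2 peaks in each compound list, the 12 of best mean percentile, the 12 with the best recurring sites and up to 4 per function list, and control-only genes likewise by control rank or with at least 3 peaks. Others (among them Phb, Carm1, Jag1, Dnajc10, Dtx4, Hhex, Dclre1b, the 5 genes with distant peaks and the remaining genes with printed sequences) were named after their values were seen. The cytosolic ribosomal list was corrected after a first look, when it had taken in ribosomal protein kinases. Using exon annotation on the peak's strand only, and the 5′ UTR share of the control-only genes with its alternatives, were also chosen after seeing the data. Results for a few genes are not reported here.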

Additional observations from a re-analysis of the deposited data

How the results depend on the processing

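Of 36 recomputed values, 28 stayed within 1.5 times the reported count or within the counting interval of the reported share, and 8 did not. With peaks at or above each list's median score, 123 common genes were found (45 of the 153 among them) and 108 control-only genes (31 of the 163). There the recurring-site share was 65.0%, the TBP 3′ UTR share of the common genes 52.3%, and the control-only shares 68.8% in 3′ UTRs and 4.46% in 5′ UTRs. With lists cut to 3034 peaks, 114 common genes (66 of the 153) and 217 control-only genes (63 of the 163) were found, and the recurring-site share was 64.0%. It was 71.9% where peak edges could lie 100 bp apart. Counting each gene by its best-scored peak gave a TCP 3′ UTR share of 60.8%. The cause was not tested. Using the lists' nearest gene gave 156 and 171 genes, of which 102 and 118 were among those reported. Counts under the other gene rules and without peaks over 500 bp ran from 147 to 155 common and 159 to 170 control-only genes. No paired analysis was possible because each condition has 1 immunoprecipitated library and the results come from no test. The lists hold no depth, so how far a missing peak reflects fewer reads was not tested.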
